A study of Homo sapiens with 12 samples.

Results

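ERM proteins, merlin, an ERM scaffold, ERM kinases and RhoA are encoded by 8 genes: EZR (ezrin), RDX (radixin), MSN (moesin), NF2 (merlin), SLC9A3R1 (NHERF1), SLK, STK10 (LOK) and RHOA. They were found by gene name among 58233 genes in the count table of an RNA-sequencing experiment on HCT116 cells, a human colorectal carcinoma line. All 8 had a row, and all 8 were among the 16657 genes with enough counts to be tested. Parental HCT116 Tet-OsTIR1 cells were compared with SDS22-degron cells, which were derived from them and carry an mAID-mClover tag on endogenous SDS22, a regulator of the protein phosphatase PP1 encoded by PPP1R7. Both lines hold a transgene for the plant F-box protein TIR1 at the AAVS1 locus that doxycycline (Dox) switches on, and the auxin IAA then recruits TIR1 to the tag so that tagged SDS22 is degraded. Each line was left untreated or received Dox at 2 µg/ml together with IAA at 500 µM for 48 h, which gave 4 groups of 3 libraries. The parental cells given both agents lack the tag and show what the agents do without depletion. The degron cells represent 1 engineered line, so a difference between the lines cannot be told apart from a difference between this line and its parent that has nothing to do with SDS22.

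Ezrin, radixin and moesin tether the actin cortex to the plasma membrane. They are held closed by contact between an N-terminal FERM domain and a C-terminal actin-binding domain, and open when a conserved C-terminal threonine is phosphorylated by kinases such as SLK and LOK, while PP1 removes this phosphate. Merlin is a FERM-domain relative that acts as a tumour suppressor upstream of the Hippo pathway, NHERF1 is a PDZ scaffold bound by the FERM domain, and RhoA is the small GTPase that drives cortical contractility and activates ERM kinases. RNA sequencing measures transcripts only and holds no information on phosphorylation.

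The regulatory threonine is encoded near the end of each ERM coding sequence, and the surrounding codons are shown because they carry the site that the kinases and PP1 act on. In the reference transcripts EZR-201, RDX-219 and MSN-201 it is codon 567 of 586, codon 564 of 583 and codon 558 of 577, counted from the start codon. The following windows of 30 bases run 5′ to 3′ with the threonine codon in capitals.
EZR: aagtacaagACGctgcggcagatccggcag
RDX: aagtacaagACTctgcgacagattcgacaa
MSN: aaatacaagACCctgcgccagatccggcag
The EZR window differed from that of RDX at 5 bases and from that of MSN at 3 bases, and the RDX and MSN windows differed at 6 bases. All of these differences were silent, since the windows lie in a run of 24 residues that is identical in the 3 proteins. Over their whole length, the translated proteins were 76.7% (EZR and RDX), 74.4% (EZR and MSN) and 81.8% (RDX and MSN) identical. Merlin shared 46.4 to 48.0% of aligned residues with the ERM proteins, and SLK shared 60.2% with STK10. The reads were 75 bases long. Only exact matches of this length were searched, so reads that map with mismatches are not covered. None of the stretches of 75 bases in the EZR, SLK and STK10 transcripts occurred in a transcript of another gene. In MSN, 1.36% of them occurred in the pseudogene MSNP1, and in RDX, 1.74% occurred in RDX pseudogenes. In NF2 the share was 0.253%. In SLC9A3R1, 211 of 1919 stretches were shared, with the antisense gene SLC9A3R1-AS1, and in RHOA 512 of 3867.

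Promoters are shown for NF2, SLC9A3R1 and RHOA, the 3 genes whose response to Dox/IAA differed between the lines. Each stretch holds the 250 bases before and 50 bases after the start site given by RefSeq on GRCh38.p14, on the strand of the gene, and capitals mark CCAAT or its reverse complement ATTGG, the letters of the CCAAT box.
NF2, chr22:29603306-29603605, plus strand: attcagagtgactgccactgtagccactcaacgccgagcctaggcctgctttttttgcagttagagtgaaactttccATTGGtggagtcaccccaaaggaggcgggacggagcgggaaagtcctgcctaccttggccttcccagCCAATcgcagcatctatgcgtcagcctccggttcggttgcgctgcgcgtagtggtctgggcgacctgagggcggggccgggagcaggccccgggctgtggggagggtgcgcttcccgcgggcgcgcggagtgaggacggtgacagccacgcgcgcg
SLC9A3R1, chr17:74748378-74748677, plus strand: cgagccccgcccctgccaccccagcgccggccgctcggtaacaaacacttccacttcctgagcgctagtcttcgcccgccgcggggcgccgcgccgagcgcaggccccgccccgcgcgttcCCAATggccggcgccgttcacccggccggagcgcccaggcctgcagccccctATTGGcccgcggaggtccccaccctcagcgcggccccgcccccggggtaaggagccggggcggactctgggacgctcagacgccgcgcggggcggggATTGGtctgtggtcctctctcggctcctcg
RHOA, chr3:49411927-49412226, minus strand: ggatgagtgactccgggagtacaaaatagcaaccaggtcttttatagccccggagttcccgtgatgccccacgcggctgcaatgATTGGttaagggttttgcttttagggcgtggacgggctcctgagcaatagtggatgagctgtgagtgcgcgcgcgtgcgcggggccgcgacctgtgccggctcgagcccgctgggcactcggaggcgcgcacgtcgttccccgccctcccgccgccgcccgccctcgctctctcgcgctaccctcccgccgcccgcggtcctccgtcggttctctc
The RefSeq start site of RHOA lies 1022 bases inside RHOA as placed in the count table. The NF2 stretch held 2 of these motifs, that of SLC9A3R1 held 3 and that of RHOA held 1. At least 1 was present in 34.6% of the 35116 promoters in the same table. The GC-box letters GGGCGG, searched on both strands, were found once in the NF2 stretch, 5 times in that of SLC9A3R1 and 4 times in that of RHOA, and in 45.0% of all promoters. No measurement in these libraries bears on binding at these stretches.

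Between 12133915 and 14657508 reads were counted per library (median 12662965), and the members had between 455 (STK10) and 36547 (EZR) counts in a library. Values are given in CPM, counts scaled to a common library size, with TMM factors that correct for differences in library composition. PPP1R7 mRNA lay between 43.7 and 47.9 CPM on average in the 4 groups, and since depletion acts on the protein, this does not check it. Of 8 epithelial markers, 7 were present at 1 CPM or more in every group, including EPCAM, KRT8 and CDH1, whereas VIL1 had almost no counts. Of 10 markers of other cell types, COL1A1 alone exceeded 1 CPM on average in 3 groups, VWF joined it in treated degron cells, and CD3E had no count. The summed level of these 10 markers was 10.6 to 13.8 CPM in untreated parental, 17.6 to 23.4 CPM in treated parental, 14.6 to 16.1 CPM in untreated degron and 22.5 to 33.1 CPM in treated degron libraries, and its part in the results was not tested. In bulk RNA, fewer cells of one type and less RNA per cell cannot be told apart. The labels call the replicates biological but do not say how they were separated, so p-values measure the spread between these libraries only.

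EZR was by far the most abundant of the 8 mRNAs, and the ERM transcript pool consisted mainly of ezrin. On a per-length scale, CPM per kb of gene length averaged over the 12 libraries, EZR reached 663, followed by RHOA at 212, SLC9A3R1 at 77.4, MSN at 44.7, RDX at 21.7, NF2 at 21.5, SLK at 14.3 and STK10 at 4.80. EZR exceeded 99.7% of the tested genes on this scale and RHOA 98.9%, whereas STK10 exceeded 44.6%. The order held within every group except for RDX and NF2, whose averages over all libraries differed by less than their spread and which changed places between groups. In untreated degron cells NF2 was the higher, at 27.3 ± 1.97 CPM per kb (SD, n = 3) against 18.5 to 19.6 CPM per kb for RDX. In treated degron cells RDX was the higher, at 25.5 ± 0.921 against 21.3 ± 1.68 CPM per kb for NF2. The 2 ERM kinases differed in level as well: SLK exceeded STK10 by 3.39 ± 0.0924-fold per length in untreated parental cells and by 2.37 ± 0.201-fold in treated degron cells. Gene lengths here are those of the count table, and those of the reference transcripts differed. They were 9083 against 5892 bases for STK10, 6592 against 4392 for RDX and 2582 against 3941 for RHOA. Order, ratios and shares between genes on this scale depend on the length chosen, while the change of a single gene between groups does not.

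**Figure D1:**
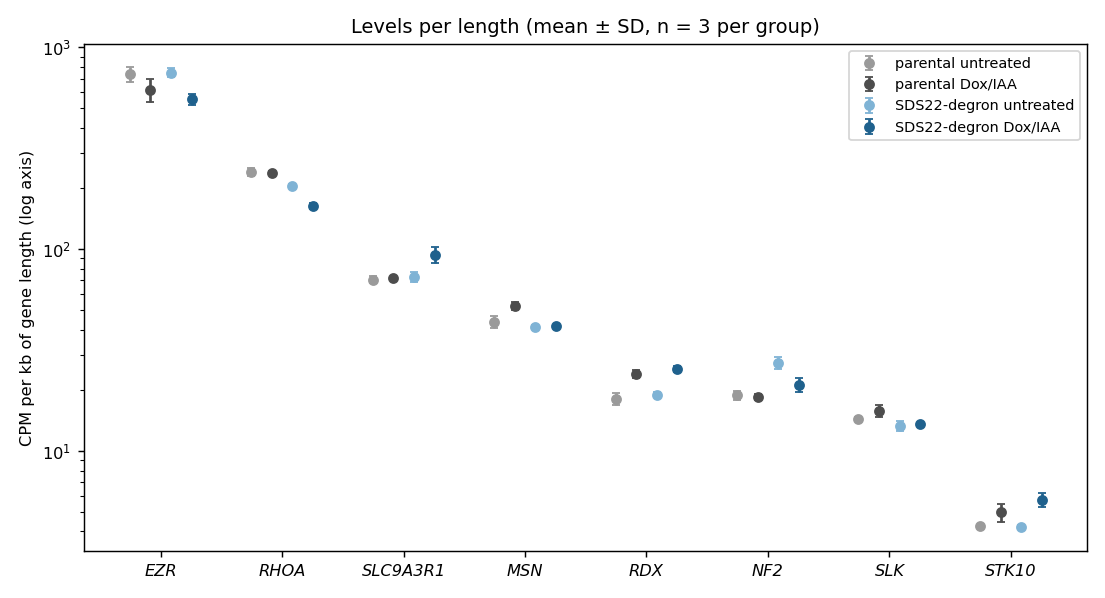
Level of each gene in CPM per kb of gene length, on a log axis, as mean ± SD of 3 libraries in each of the 4 groups. EZR lies above all other members in every group. The group means of RDX (18.1 to 25.5 CPM per kb) and NF2 (18.6 to 27.3) span overlapping ranges, and STK10 is lowest.

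The 3 ERM genes responded to Dox/IAA in different directions. EZR (ENSG00000092820) lies on the minus strand of chromosome 6, from 158765741 to 158819412 in the table, which uses GRCh38. Its mRNA stood at 2574, 2220.4 and 2588 CPM in the untreated parental libraries and at 2258, 1752 and 2171 CPM in the treated ones. In degron cells it stood at 2370.0, 2514 and 2619 CPM without treatment and at 1761, 1809 and 1970.0 CPM after it. The treated and untreated degron libraries did not overlap, while the parental ones did, and replicate 2 of the treated parental group was the lowest of all 12. EZR fell to 73.8% of its untreated level in degron cells (log2 fold change -0.44 ± 0.0927 (SE), adjusted p = 0.000662) and to 83.7% in parental cells (log2 fold change -0.26 ± 0.0925, adjusted p = 0.0418). The parental call was lost when 1 of 6 libraries was left out, among them replicate 2 of the treated parental group, without which the log2 fold change was -0.15. The other 5 were replicates 1 and 3 of untreated parental, replicate 3 of treated parental, and replicate 2 of each degron group.

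RDX (ENSG00000137710, chromosome 11, 110174880 to 110296722, minus strand) moved the opposite way, with like changes in both lines. It was at 125, 122 and 109.9 CPM in untreated and 166, 159.5 and 152 CPM in treated parental libraries. The degron libraries were at 129, 125 and 122 CPM without and 174, 162 and 168 CPM with Dox/IAA. Every treated library exceeded every untreated one, whichever line it came from. RDX rose to 134% of its untreated level in each line, with a log2 fold change of 0.42 ± 0.0650 in degron (adjusted p = 2.74e-05) and 0.42 ± 0.0654 in parental cells (adjusted p = 0.000121). The difference between these responses was 0.00 on the log2 scale, with a 95% interval of -0.19 to 0.20.

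MSN (ENSG00000147065, chromosome X, 65588377 to 65741931, plus strand) passed the test of Dox/IAA in parental cells and not in degron cells. Its levels were 243, 278 and 259 CPM in untreated and 301, 326 and 310.1 CPM in treated parental libraries. They were 241, 249 and 249 CPM in untreated and 245, 250.1 and 250.2 CPM in treated degron libraries, all below the treated parental range. MSN reached 120.2% of its untreated level in parental cells (log2 fold change 0.27 ± 0.0617, adjusted p = 0.00312) and 101% in degron cells (0.01 ± 0.0618, adjusted p = 0.884). The difference of these responses was -0.25 ± 0.0873 on the log2 scale and missed the threshold (adjusted p = 0.0600), but passed it with the replicate number as a block (-0.25, adjusted p = 0.0275). The processed pseudogene MSNP1 on chromosome 5 carried 17.9 to 19.9% as many counts as MSN in every library, and its own difference of responses was -0.35 ± 0.105 (adjusted p = 0.0306). With the counts of both summed, an alternative chosen after seeing the data, the difference was -0.27 (adjusted p = 0.0487).

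**Figure D2:**
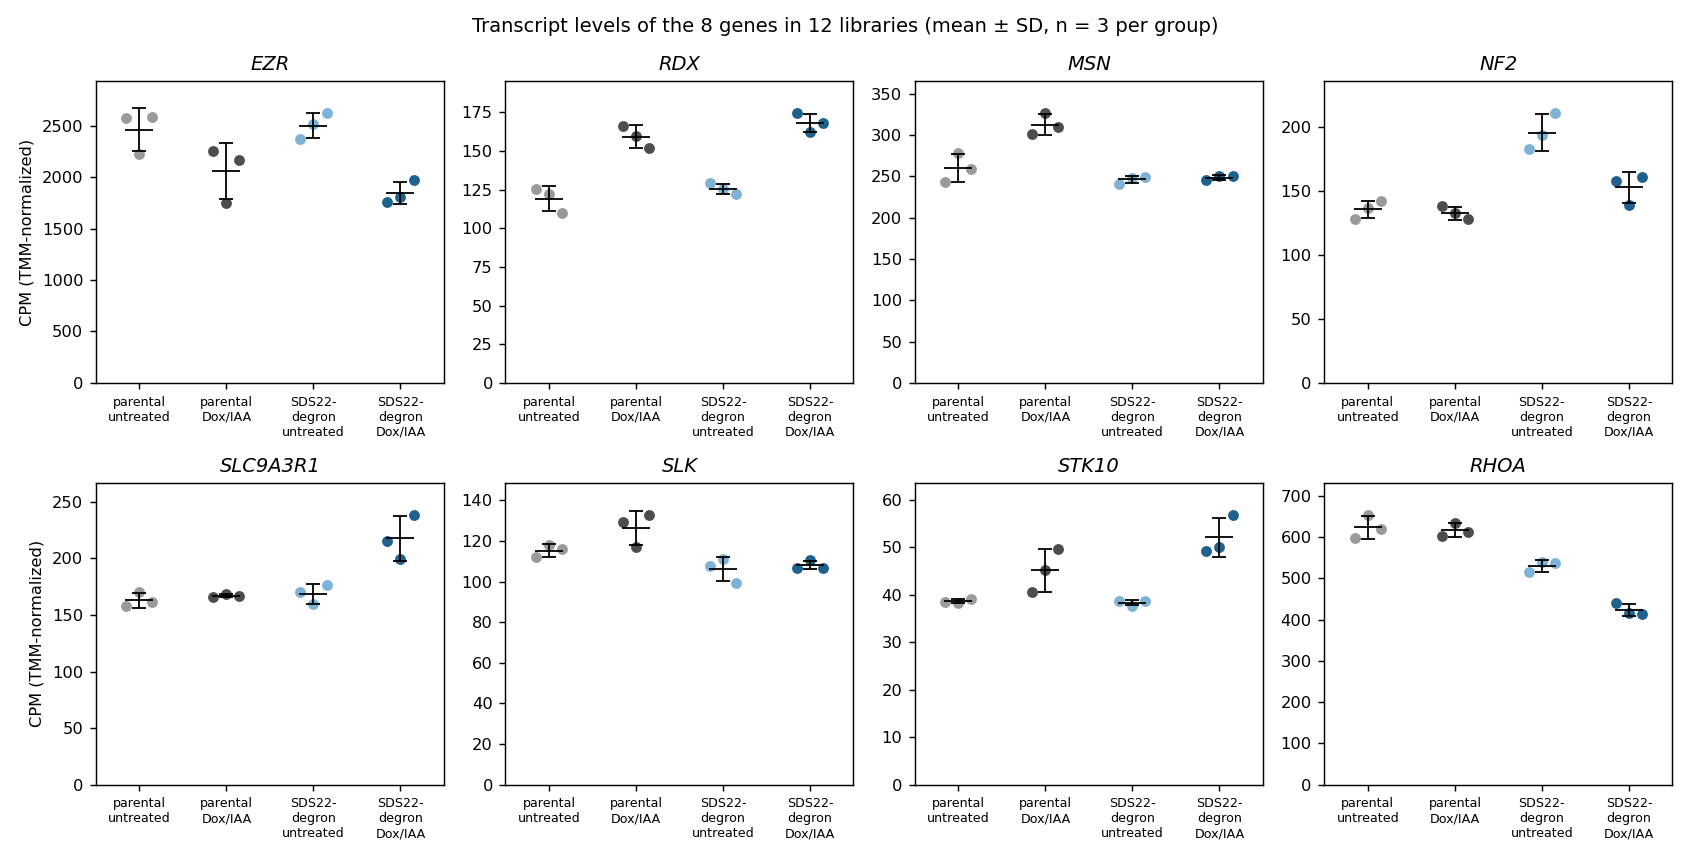
TMM-normalized CPM of the 8 genes in each of the 12 libraries (points), with mean ± SD of the 3 libraries of a group (bars). Treated libraries of both lines lie above untreated ones for RDX, the treated degron libraries stand apart for SLC9A3R1 and RHOA, and the untreated degron libraries stand apart for NF2.

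The make-up of the ERM transcripts differed between treated and untreated libraries of both lines. Per length, EZR made up 92.2 ± 0.990% of the ERM sum in untreated parental and 88.8 ± 1.66% in treated parental cells, and 92.5 ± 0.328% and 89.2 ± 0.553% in untreated and treated degron cells (SD, n = 3). The RDX share was 2.28 ± 0.269% and 3.52 ± 0.439% in the parental line and 2.36 ± 0.176% and 4.12 ± 0.293% in the degron line. The MSN share was 5.50 ± 0.779% and 7.65 ± 1.24% in the parental line and 5.11 ± 0.153% and 6.73 ± 0.299% in the degron line. For all 3 genes and in both lines, the share in the treated libraries did not overlap that in the untreated ones. Shares of the same sum are tied to each other, so these are not separate results. In degron cells the MSN share rose although MSN itself did not pass the test (log2 fold change 0.01). The ERM sum itself was 798 ± 59.4 and 693 ± 79.0 CPM per kb in untreated and treated parental cells, with overlapping libraries, and 809 ± 37.6 and 619.7 ± 32.8 CPM per kb in untreated and treated degron cells, without overlap.

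**Figure D3:**
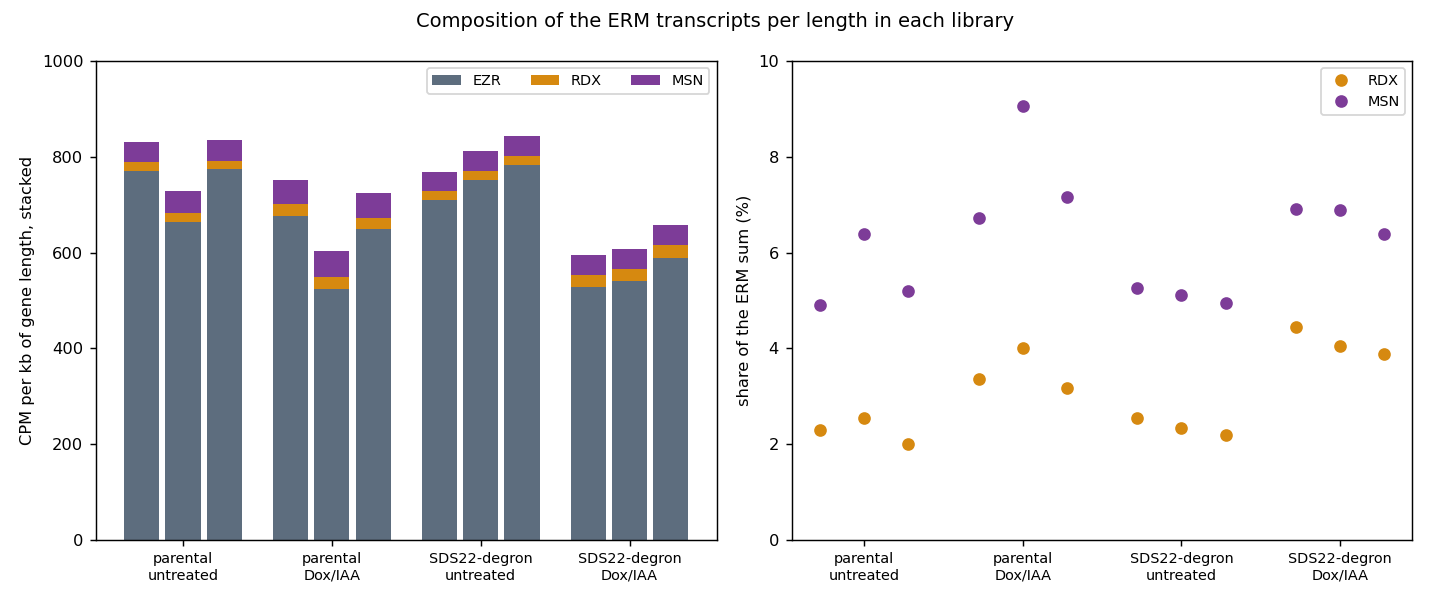
Left, CPM per kb of EZR, RDX and MSN stacked for each library; right, the share of RDX and MSN in this sum in percent, with replicates 1 to 3 from left to right in each group. The RDX share lies between 2.00 and 2.54% in untreated and between 3.18 and 4.44% in treated libraries of both lines.

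NF2 (ENSG00000186575, chromosome 22, 29603556 to 29698598, plus strand) was higher in the degron line before treatment and fell there upon Dox/IAA. It was at 129, 137 and 142 CPM in untreated and 138, 133 and 128 CPM in treated parental libraries. Untreated degron libraries had 183, 194 and 211 CPM and treated ones 158, 139 and 162 CPM. The untreated degron libraries lay above all others, and the lowest treated degron library lay within the parental range. NF2 fell to 78.1% of its untreated level in degron cells (log2 fold change -0.36 ± 0.0720, adjusted p = 0.000420) and was at 97.9% in parental cells (-0.03 ± 0.0729, adjusted p = 0.790). The test of the difference gave -0.33 ± 0.102 on the log2 scale (adjusted p = 0.0387).

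SLC9A3R1 (ENSG00000109062, chromosome 17, 74748652 to 74769353, plus strand) rose upon Dox/IAA in degron cells. Its levels were 158, 170.4 and 161 CPM in untreated parental, 166, 168 and 167 CPM in treated parental and 170.4, 159 and 177 CPM in untreated degron libraries. In the treated degron libraries they were 216, 199 and 238 CPM, above all 9 others, which overlapped each other. The mRNA reached 129% of its untreated level in degron cells (log2 fold change 0.37 ± 0.0688, adjusted p = 0.000216) against 102% in parental cells (0.03 ± 0.0693, adjusted p = 0.750). The difference was 0.33 ± 0.0977 on the log2 scale (adjusted p = 0.0285).

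Of the ERM kinases, STK10 rose with Dox/IAA and SLK did not pass the test. STK10 (ENSG00000072786, chromosome 5, 172042073 to 172188386, minus strand) was at 38.4, 38.4 and 39.2 CPM in untreated and 40.6, 45.3 and 49.6 CPM in treated parental libraries, and at 38.6, 37.8 and 38.7 CPM in untreated and 49.3, 50.2 and 56.8 CPM in treated degron libraries. Treated libraries exceeded untreated ones in each line. STK10 rose to 136% of its untreated level in degron cells (log2 fold change 0.44 ± 0.0811, adjusted p = 0.000176) and to 117% in parental cells (0.22 ± 0.0822, adjusted p = 0.0452). The parental call was lost when any library was left out except replicate 1 of the treated parental group and replicates 1 and 3 of the treated degron group. The responses were not shown to differ (0.22, 95% interval -0.03 to 0.46, adjusted p = 0.225). SLK (ENSG00000065613, chromosome 10, 103967201 to 104029233, plus strand) was at 112, 118 and 116 CPM in untreated and 129, 117 and 133 CPM in treated parental libraries, and at 108, 111 and 99.4 CPM in untreated and 107, 111 and 107 CPM in treated degron libraries. Untreated and treated libraries overlapped in both lines, and neither response passed the test (degron 0.03 ± 0.0658, adjusted p = 0.759; parental 0.13 ± 0.0655, adjusted p = 0.130).

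RHOA (ENSG00000067560, chromosome 3, 49359145 to 49412998, minus strand) was lower in untreated degron than in parental cells, and lower again after Dox/IAA. The parental libraries stood at 598, 653 and 619 CPM without and 603, 634 and 613 CPM with Dox/IAA. Untreated degron libraries stood at 514, 539.6 and 537 CPM and treated ones at 441, 416 and 414 CPM. Untreated degron libraries lay below every parental library, and treated degron libraries below every untreated one. RHOA was at 79.9% of its untreated level in treated degron cells (log2 fold change -0.32 ± 0.0610, adjusted p = 0.000218) and at 98.9% in treated parental cells (-0.02 ± 0.0607, adjusted p = 0.874). The difference was -0.31 ± 0.0860 on the log2 scale (adjusted p = 0.0217). RHOA overlaps TCTA on the opposite strand, whose counts came to 4.08% of those of RHOA, and other genes that overlap a member had under 0.2% of its counts.

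Counted over the 8 members, Dox/IAA raised 3 mRNAs in degron cells (RDX, SLC9A3R1 and STK10), lowered 3 (EZR, NF2 and RHOA) and left 2 (MSN and SLK) short of the threshold of adjusted p under 0.05. Among all tested genes, 51.5% passed it in this comparison, 26.0% as higher and 25.5% as lower. Libraries did not overlap for 6 members and for 59.9% of all genes. In parental cells, RDX, MSN and STK10 rose, EZR fell, and NF2, SLC9A3R1, SLK and RHOA did not pass, against a background of 31.6% (15.9% higher and 15.7% lower). Libraries did not overlap for 3 members and for 41.3% of all genes. The median absolute log2 fold change of the members was 0.36 in degron and 0.18 in parental cells, beside 0.32 and 0.22 for all genes. Their signed medians were 0.02 and 0.08, beside 0.00 for all genes in either line, and called members were found in both directions. With library size alone as the scaling, the split of all called genes in parental cells moved from 2656 higher and 2608 lower to 3503 and 1958, and EZR no longer passed there while SLK did (log2 fold change 0.19). In the study, genes counted as changed at a log2 fold change beyond 1 in either direction, with p below 0.05 before adjustment. No change of a member reached this size in any comparison, whereas 7.83% of all genes passed that cut-off upon Dox/IAA in degron cells, 3.14% in parental cells, 6.63% between the treated lines, 4.14% between the untreated lines and 3.60% in the interaction.

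The responses of the 2 lines differed for 3 of 8 members, with a more positive change of SLC9A3R1 and more negative changes of NF2 and RHOA in degron cells, while 14.4% of all genes passed this test of the interaction (6.03% higher and 8.35% lower). The median of the members was -0.14 on the log2 scale, beside -0.00 for all genes. These calls were close to the threshold. With the replicate number as a block 4 passed, with MSN added, while the count over all genes went from 2396 to 3128. The number fell to 0 without replicate 2 of untreated degron, and to 1 without replicate 2 of treated parental or replicate 2 of treated degron. Over all genes, 1681, 1788 and 1983 passed in these fits, in this order. NF2 lost its call without 1 of 6 libraries (replicate 1 of untreated parental, replicates 1 and 2 of treated parental, replicates 2 and 3 of untreated degron, replicate 2 of treated degron), but its log2 difference stayed between -0.38 and -0.26 over all alternatives. SLC9A3R1 lost it without 1 of 7 (replicate 2 of untreated parental, replicates 1 and 3 of treated parental, replicates 1 and 2 of untreated degron, replicates 1 and 3 of treated degron). RHOA lost it without replicate 2 of treated parental, of untreated degron or of treated degron.

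**Figure D4:**
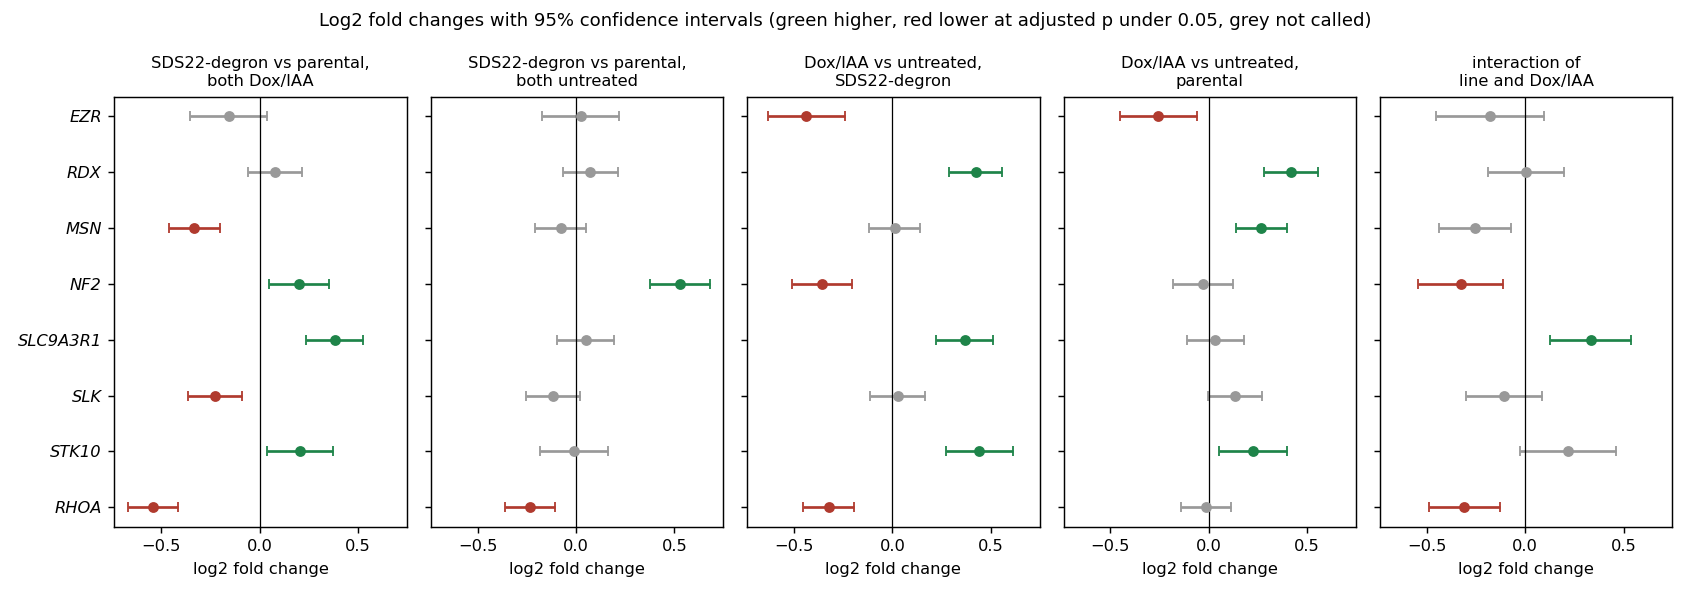
Log2 fold change of each gene in the 5 comparisons, with 95% confidence intervals; green and red mark genes that were higher and lower at an adjusted p under 0.05. RDX has the same change of 0.42 in both lines upon Dox/IAA, whereas SLC9A3R1, NF2 and RHOA change in degron cells and stay near 0 in parental cells.

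Between the treated lines, the comparison that the study made between depleted cells and their parents, 3 members were higher in degron cells and 3 lower, among a background of 44.9% of genes that passed (21.8% higher and 23.1% lower). SLC9A3R1 was at 130.3% of the parental level (log2 fold change 0.38 ± 0.0689, adjusted p = 0.000191), NF2 at 115% (0.20 ± 0.0726, adjusted p = 0.0303) and STK10 at 115% (0.21 ± 0.0806, adjusted p = 0.0449). RHOA was at 68.7% (-0.54 ± 0.0610, adjusted p = 1.22e-06), MSN at 79.5% (-0.33 ± 0.0617, adjusted p = 0.000260) and SLK at 85.5% (-0.23 ± 0.0656, adjusted p = 0.00897). EZR was at 89.7% (95% interval of the log2 fold change -0.35 to 0.04) and RDX at 106% (-0.06 to 0.21), and neither passed. Treated libraries of the lines did not overlap for 5 members, all called ones but STK10, and for 52.9% of all genes. NF2 lost its call without replicate 3 of treated parental or replicates 1 or 3 of treated degron, and STK10 did so without any library except replicate 3 of treated parental and replicate 1 of treated degron. EZR passed without replicate 2 of treated parental, with a log2 fold change of -0.24. This comparison and those within the lines share libraries, so their results are not separate evidence.

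Before any treatment, NF2 and RHOA already differed between the lines. NF2 was at 144% of the parental level (log2 fold change 0.53 ± 0.0723, adjusted p = 2.80e-05) and RHOA at 85.0% (-0.23 ± 0.0608, adjusted p = 0.00732). The remaining 6 did not pass, with log2 fold changes from -0.12 (SLK) to 0.07 (RDX), where 28.2% of all genes did. Libraries did not overlap for NF2, RHOA and SLK, and for 43.5% of all genes.

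The difference of RHOA between the untreated lines was close to the median of its chromosome. The median log2 fold change of the tested genes of chromosome 3 was -0.27 between the untreated and -0.26 between the treated lines, and -0.01 upon Dox/IAA in degron cells. Of 161 tested genes that start within 5 Mb of RHOA, 83 passed as lower and 3 as higher between the untreated lines (adjusted p under 0.05). Their median was -0.32, and 28.2% of all genes passed in this comparison. Upon Dox/IAA in degron cells, 41 of the 161 passed as lower and 37 as higher, where 25.5% and 26.0% of all genes did. Their median was -0.02, and RHOA changed by -0.32. Whether the level of the chromosome has a part in that of RHOA was not tested. The chromosomes of the other 7 members had medians between 0.02 and 0.11 in the comparisons between the lines, and the median for chromosome 22, which holds NF2, was 0.11 between the untreated lines.

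**Figure D5:**
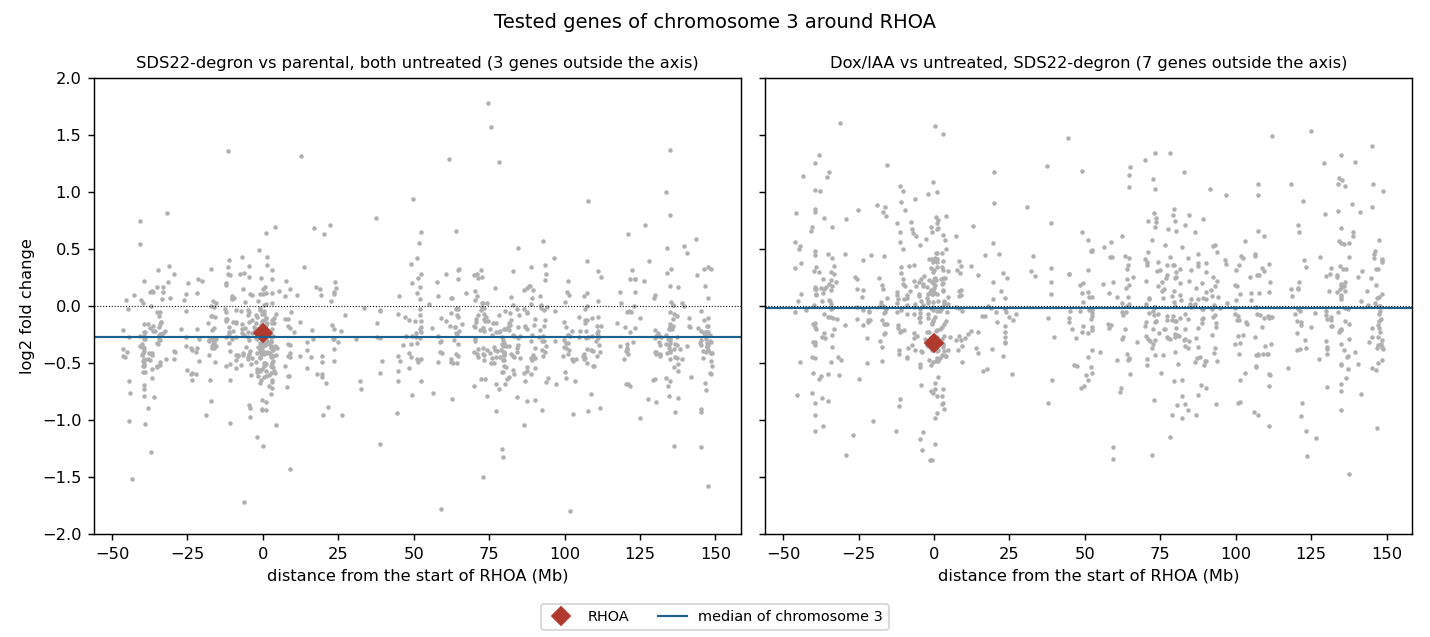
Log2 fold change of the tested genes of chromosome 3 against the distance of their start from that of RHOA in Mb, between the untreated lines (left) and upon Dox/IAA in degron cells (right); 3 and 7 genes lie outside the axis. RHOA (-0.23) lies near the median of its chromosome (-0.27) on the left and below it (-0.32 against -0.01) on the right.

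Markers of proliferation were lower in the treated degron cells. All 9 (among them MCM2, PLK1 and CCNB1) passed as lower between the treated lines, upon Dox/IAA in degron cells and in the interaction (adjusted p under 0.05). Their median log2 values were -1.04, -1.44 and -1.33, where 23.1%, 25.5% and 8.35% of all genes passed as lower. In parental cells 2 of 9 passed as lower (median -0.19), where 15.7% of all genes did. Between the untreated lines 3 passed as higher and 2 as lower (median 0.19), where 28.2% of all genes passed in either direction. The part of proliferation in the changes of SLC9A3R1, NF2 and RHOA was not tested.

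The members did not vary as a unit. Over the 12 libraries, Pearson correlations of log2 CPM between them ranged from -0.85 (SLC9A3R1 and RHOA) to 0.81 (SLC9A3R1 and STK10). EZR and RDX were at -0.84, RDX and STK10 at 0.80, MSN and SLK at 0.78, and SLK and STK10 at 0.04. These libraries share their 4 groups, and the values are a description only. Among 10850 genes with a mean of at least 10 CPM, the gene most like RHOA was TMPO (r = 0.987), followed by ALDOA (0.987). That most like RDX was COQ10B (0.972), and those for EZR, NF2, SLC9A3R1, SLK and STK10 were UCA1 (0.969), F3 (0.963), TRPC4AP (0.957), BTBD3 (0.916) and LEPROT (0.971). For MSN they were GAS6 (0.972), its pseudogene MSNP1 (0.968) and FSCN1 (0.967), which encodes the actin bundler fascin.

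Genes that act on or with the members were examined as lists. Their counts stand against 44.9% of all genes called between the treated lines (21.8% higher and 23.1% lower), 28.2% between the untreated lines, and 6.03% higher and 8.35% lower in the interaction. Of 18 tested further kinases that phosphorylate ERM proteins, 6 were higher and 4 lower in treated degron than in treated parental cells, beside 44.9% of all genes called, and the median of their log2 fold changes was 0.05 beside -0.01 for all genes. PRKCQ, which encodes protein kinase C theta, averaged 7.80 CPM in treated degron against 1.01 CPM in treated parental cells (log2 fold change 2.94 ± 0.238, adjusted p = 2.83e-08), but already differed between the untreated lines (1.87). PRKCI, on chromosome 3, and STK26 differed by -0.77 and 0.37 on this scale, and by -0.69 and 0.38 before treatment. In the interaction 2 of the 18 passed, both of them higher, and they were not among these 3.

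Of 10 tested PP1 and myosin phosphatase subunits, the enzymes that act on the ERM threonine and on myosin light chain, 2 were higher and 2 lower between the treated lines (median 0.00), where 44.9% of all genes were called. PPP1R14C and PPP1R14B, inhibitors of PP1 complexes, differed by 1.01 ± 0.134 and -0.58 ± 0.0863. PPP1R14C was also higher before treatment (1.77). PPP1R12C, a targeting subunit of myosin phosphatase, was higher by 0.79 ± 0.140, and Dox/IAA raised it by 2.87 in parental and 3.91 in degron cells. The AAVS1 locus, which holds the Dox-driven transgene in both lines, lies within PPP1R12C. Whether the transgene has a part in these counts was not tested. The fourth gene called, chosen after its values were seen, was PPP1CC, a catalytic subunit (-0.21, adjusted p = 0.0410). In the interaction 2 of the 10 passed, both lower, beside 8.35% of all genes.

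Of 14 tested membrane and scaffold partners, 6 were higher and 2 lower between the treated lines, with a median of 0.29, beside 21.8% higher and 23.1% lower among all genes. They included CRB3, a polarity protein (0.65), SCRIB, another polarity protein (-0.44), and BST2, a membrane tether bound to the cortex (1.36, 3.32 against 1.29 CPM). CRB3 overlaps SLC25A23 on the opposite strand, which had 617% of its counts. In the interaction 2 passed, both with a more positive change in degron cells, as did 6.03% of all genes. They were BST2 (2.18) and CD44 (0.54), the latter chosen after its values were seen. CD44 averaged 948 and 601 CPM in untreated and treated parental cells, and 710 and 656 CPM in degron cells. It thus fell more in parental cells and did not rise in degron cells. BST2 averaged only 1.116 and 0.636 CPM in untreated parental and untreated degron cells.

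Of 24 tested merlin partners and Hippo pathway genes, 8 were higher and 6 lower between the treated lines, with a median of 0.10, where 44.9% of all genes were called. Between the untreated lines 8 were also higher and 6 lower, where 28.2% of all genes were called. DCAF1, which encodes a ubiquitin ligase subunit that binds merlin, was lower (-0.68 ± 0.0623), as was PAK2, a kinase that phosphorylates merlin (-0.46 ± 0.0665). WWC2, a KIBRA relative, was higher (0.72 ± 0.0857). DCAF1 and PAK2 both lie on chromosome 3, and DCAF1 overlaps RBM15B on the opposite strand, which had 111% of its counts. In the interaction 1 gene was higher and 2 were lower.

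Of 22 other tested FERM-domain genes, 13 were higher and 3 lower between the treated lines, with a median of 0.30, beside 21.8% higher and 23.1% lower among all genes. Between the untreated lines 9 were higher and 2 lower, where 28.2% of all genes were called. FERMT1, the epithelial kindlin, was lower (-0.97 ± 0.0795). FARP1 was higher (0.50 ± 0.0616), as was EPB41L4A (0.98 ± 0.124), and each overlaps a gene on the opposite strand with more counts than its own. With Dox/IAA, FERMT1 changed by -0.69 in parental and by -1.02 in degron cells, and the interaction (-0.33, adjusted p = 0.0484) passed narrowly. In all, 2 of the 22 were higher and 3 lower in the interaction.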

How the data were processed

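Poly-A selected, stranded libraries were sequenced as single reads of 75 bases. Raw read counts per gene were deposited for all 12 libraries, and the same table as deposited holds gene positions, lengths and the GC content of each gene in percent. The submitters' processing notes name cutadapt 1.15, Bowtie2 2.3.3.1, STAR 2.5.2b, SAMtools 1.5, featureCounts 1.5.3 and GRCh38, without their roles. The strand setting and the annotation release are not given in the sources used here, so reads of overlapping genes may be shared. Groups were taken from the sample titles.

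From the counts, genes were filtered with filterByExpr (minimum count 10), which kept 16657, scaled by TMM (factors 0.971 to 1.03) and modelled in edgeR 4.0.16 (R 4.3.3) by 4 group means. The quasi-likelihood F test was used, with Benjamini-Hochberg adjustment over all tested genes, and the biological coefficient of variation was 7.48%. The study used the likelihood ratio test, run as an alternative. The SE of the log2 fold changes had a median of 0.110, and of 0.156 for the interaction. No libraries were identical. The titles number the biological replicates of each group. Deviations from the group means correlated over 0.1 in 7 of 18 pairs of same-numbered libraries and in 0 of 36 other pairs (highest 0.0845), and 11 of 12 libraries correlated best with their own number. All 3 same-numbered pairs were over 0.1 between the treated lines (0.101, 0.133 and 0.138). They were also over 0.1 between untreated and treated parental cells (0.124, 0.246 and 0.131). Same-numbered libraries thus resembled each other in these 2 comparisons, but the titles do not say what they share. The main fit does not use the replicate number, and the block is an alternative. In the other comparisons not every pair was over 0.1. The steps were also run on simulated counts with planted changes larger than those of the members, which does not bear on calls near the threshold. A prior count of 2 was added for log2 CPM in correlations.

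The named genes are the 8 members, per list the 3 genes of smallest p in the comparison of treated lines, overlapping or like-named genes, and the genes most correlated with each member, of which some are given. The members and lists were chosen with earlier results of these data known. The result of a further gene list is not reported here. Alternatives were DESeq2 1.42.0, other normalizations and filters, only the groups compared, a GC correction, a block for the replicate number, leaving out each library and, chosen after seeing the data, MSN and MSNP1 counts summed. Transcripts and proteins were compared with Biopython 1.88. Promoters come from RefSeq, where all 3 genes were found by symbol, SLC9A3R1 as NHERF1. The start site nearest the gene start in the count table was used, at a distance of 0 bases for NF2, 24 for SLC9A3R1 and 1022 for RHOA.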

Additional observations from a re-analysis of the deposited data

Results flagged for a closer look

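For 3 of the 8 genes, the response to Dox/IAA differed between the 2 lines by a test of that difference, which 14.4% of all genes passed. The log2 difference, degron minus parental, was -0.33 for NF2 (95% interval -0.54 to -0.11, adjusted p = 0.0387), with every treated degron library below every untreated one and overlapping libraries in the parental line. For SLC9A3R1 it was 0.33 (0.13 to 0.54, adjusted p = 0.0285), with all 3 treated degron libraries above the untreated ones. For RHOA it was -0.31 (-0.49 to -0.13, adjusted p = 0.0217), with all 3 treated degron libraries below the untreated ones. Treated and untreated degron libraries did not overlap for 59.9% of all genes. All 3 adjusted p-values are from edgeR's quasi-likelihood test over 16657 genes. All 3 calls were lost without replicate 2 of untreated degron, and each was also lost without certain other single libraries.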

How the results depend on the processing

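The number of members that passed the test was 6 upon Dox/IAA in degron cells and 2 between the untreated lines in every alternative run. Between the treated lines it was 6, with 4 to 7 in the alternatives. Upon Dox/IAA in parental cells it was 4, but 2 when only the groups compared were fitted and 2 to 4 with 1 library left out. In the interaction it was 3, with 0 to 3 with 1 library left out and 4 with DESeq2, with library size only, with both block fits and with MSN and MSNP1 summed. MSN was the added gene, and its interaction passed in 7 of 22 alternatives (adjusted p from 0.0165 to 0.153). Over all genes the interaction passed for 2396, with 1681 to 2957 with 1 library left out and 2409 with DESeq2. It passed for 2420 with library size only, 3128 and 3256 with the block fits and 2397 with MSN and MSNP1 summed. The cause of the lost calls of members was not tested, and leaving out a library also leaves fewer libraries. No value reversed. Of 392 log2 fold changes from alternatives other than leaving out a library, 375 kept their direction or their place below the threshold, 10 lost and 7 gained a call. Of 480 with 1 library left out, the counts were 432, 44 and 4. Scaling moved levels by at most 2.74%.

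With the replicate number as a block, 4 members passed in the interaction, 6 between the treated lines, 2 between the untreated lines, 6 upon Dox/IAA in degron and 4 in parental cells, and no called member lost its call. The block changed the call of MSN in the interaction and no other call of a member. Over all 16657 genes, the block gave 3128 calls in the interaction against 2396 without it. It gave 8025 against 7486 between the treated lines and 5382 against 4698 between the untreated lines. Upon Dox/IAA it gave 9082 against 8580 in degron and 5985 against 5264 in parental cells.

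The calls near the threshold were those lost. EZR in parental cells did not pass with library size only, upper quartile or only the groups compared, and STK10 there did not with DESeq2, no filter or only the groups compared. Between the treated lines, NF2 did not pass with no filter, and STK10 did not with no filter, the GC correction or only the groups compared, while EZR passed with no filter and RDX with the GC correction and block. With 3 libraries per group, the SE of a member's log2 fold change was 0.0607 to 0.0927 between groups. STK10 rested on the fewest reads, at least 455 per library.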
